A study of Rattus norvegicus with 6 samples.

Results

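DQ732700 and DQ746748 are the PIWI-interacting RNAs (piRNAs) that the study carried forward into functional experiments on islet cells. They were found by their accession among 39727 piRNA probes, and each of these 2 members has 1 probe, printed as 1 spot per array. The arrays compared islets of Wistar rats, an outbred laboratory stock, with islets of Goto-Kakizaki (GK) rats, an inbred line that becomes diabetic without obesity. All animals were aged 3 months, the labels name no treatment for either strain, and total RNA from 3 Wistar and 3 GK islet samples was labelled with Cy3 at its 3' end and read on 1 array per sample. Per the labels each RNA was extracted on its own, with no number of animals per sample, so the spread given here is that between samples.

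piRNAs are short RNAs that guide PIWI proteins to matching transcripts. They are best known from the germline, where this guidance keeps transposons silent. Outside the gonads their levels are usually low, and what they do in somatic tissue is less settled. Beta cells are the islet cells that release insulin, and GK rats are used in diabetes research because their beta cells secrete too little of it.

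The study picked both piRNAs on these same 6 arrays. The thresholds of its deposited list were a fold of 2 and a p of 0.05 without adjustment, and a note in it says that the piRNAs taken further are among those listed. In the authors' deposited table DQ732700 has a fold of 7.23 upward in GK and a p-value of 0.00774. DQ746748 has a fold of 3.94 upward and a p-value of 9.41e-05 in the authors' deposited table. Among the 128 piRNAs listed as higher in GK, DQ732700 has the rank 3 by fold and 44 by p-value, and DQ746748 the rank 20 by fold and 3 by p-value. The median fold of that list is 2.42. The strain difference of these piRNAs is therefore given as a description, with no p-value of its own, because the same difference selected them. Standard errors and counts from the fit over all probes are no independent evidence for it.

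Several features of the arrays bear on both piRNAs. Per the file headers, the 3 Wistar arrays and GK 1 were read in scan 1, and GK 2 and GK 3 in scan 2. GK 2 stood apart, with a median processed signal of 8.07 over non-control spots against 2.53 to 3.46 on the other 5 arrays. The number of arrays limits the precision, and no spot was saturated. Of 159 non-piRNA probes, 61 were named through RefSeq, and none of 18 listed PIWI pathway transcripts or 20 listed transcript markers of pancreatic cell types was among them, nor any of 6 marker miRNAs. The islet label could not be checked against markers. In bulk RNA of this kind, more cells of one type and more RNA per cell cannot be told apart.

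DQ732700 had low, closely spaced signals in Wistar islets and higher ones in GK islets. Its processed signal, which is background-subtracted within the array, was 41.0, 30.9 and 33.6 scanner units on Wistar 1, 2 and 3. On GK 1, 2 and 3 it was 119, 287 and 270. Each of the GK values lay above each of the Wistar values, and GK 1 lay well below the other GK arrays. The scanner software's error of a single spot was at most 12.4% of the signal, so the gap between GK 1 and the other GK arrays was larger than the reading error of the spots.

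DQ746748 also had closely spaced Wistar signals, and its GK signals were more even than those of DQ732700. In Wistar islets its processed signal was 20.2, 18.1 and 17.8, in the order of the sample numbers. On GK 1, 2 and 3 it was 82.1, 75.4 and 49.7. The strains again did not overlap, and here GK 3 was the lowest GK array. The software's error was 13.8% to 17.3% of the signal on the Wistar arrays and 10.3% to 10.6% on the GK arrays. The signals of the DQ732700 and DQ746748 probes are not set against each other, because each probe binds with its own strength.

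**Figure D1:**
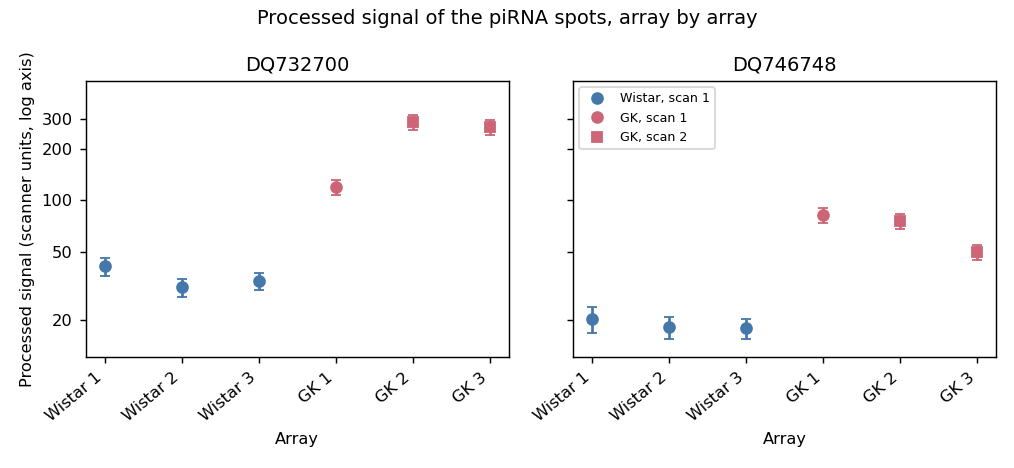
Processed signal in scanner units (log axis) of the DQ732700 spot (left) and the DQ746748 spot (right) on each array, with the scanner software's error of the spot as bars, circles for scan 1 and squares for scan 2. GK points lie above all Wistar points in both panels, and for DQ732700 the GK 1 point at 119 lies below GK 2 and GK 3 at 287 and 270.

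To compare arrays, log2 signals were expressed relative to each array's 75th percentile, taken over the 7795 probes detected throughout. A scaled value of 0 is thus that percentile, and negative values lie below it. For DQ732700 the scaled log2 signal was -2.54, -2.67 and -2.59 in Wistar islets and -0.74, 0.92 and 0.93 in GK islets. The means were -2.60 ± 0.06 (SD, n = 3) and 0.37 ± 0.96 (SD, n = 3). Their difference was 2.97 on the log2 scale (SE 0.47 in the limma fit), a 7.83-fold higher level in GK islets. The lowest GK array exceeded the highest Wistar array by 1.80 on the log2 scale, or 3.48-fold, whereas the GK arrays spanned 1.67 among themselves and the Wistar arrays 0.13.

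For DQ746748 the scaled log2 signal was -3.56, -3.44 and -3.50 in Wistar islets and -1.28, -1.004 and -1.51 in GK islets. Its means were -3.50 ± 0.06 (SD, n = 3) and -1.27 ± 0.25 (SD, n = 3). The difference of 2.24 (SE 0.24 in the limma fit) is a 4.71-fold higher level in GK islets. The gap between the lowest GK and the highest Wistar array was 1.93 on the log2 scale, or 3.81-fold. That gap was wider than the span of the GK arrays, 0.51, and of the Wistar arrays, 0.12.

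The spread within strains set the piRNAs apart from each other. Among probes detected on every array the median SD was 0.30 in GK and 0.29 in Wistar islets. The Wistar SD of DQ732700 was larger than that of 4.82% of these probes and the Wistar SD of DQ746748 larger than that of 4.19%, so both were among the steadier probes there. In GK islets DQ732700 was at the percentile 97.0 of the SD and DQ746748 at 40.6. A small spread between Wistar arrays is part of what a small p-value selects, so it is no separate finding about these piRNAs.

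The GK signals of DQ732700 differed between the scans, and those of DQ746748 did so less. GK 1, read together with the Wistar arrays, exceeded the Wistar mean by 1.86 on the log2 scale, or 3.62-fold, while the excess was 3.52 on GK 2 and 3.53 on GK 3. Their mean corresponds to 11.5-fold. For DQ746748 the excess over the Wistar mean was 2.22 on GK 1, 2.50 on GK 2 and 1.99 on GK 3. That is 4.66-fold for GK 1 and 4.74-fold for the mean of GK 2 and GK 3, each over the Wistar arrays of scan 1. Within scan 1, which holds both strains but only GK 1 of the GK arrays, the difference was therefore smaller for DQ732700 than for DQ746748. Over all arrays it was larger for DQ732700. A scan difference and a difference between GK samples cannot be told apart, since scan 2 holds GK samples only. Without GK 2, the array that stood apart, the differences were 2.69 for DQ732700 and 2.10 for DQ746748.

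Against all 11407 probes tested, both differences lay far out in the upper tail. DQ732700 had the rank 16 and DQ746748 the rank 49 from the largest positive log2 difference, and the median difference of all tested probes was 0.17. Among the 7794 probes that could be ranked and were detected on every array, DQ732700 had the rank 3 and DQ746748 the rank 9. Non-overlap with GK higher was common, at 12.5% of the 11358 probes with values on all arrays. In the limma fit over all tested probes with Benjamini-Hochberg adjustment, 0 of the 2 piRNAs passed an adjusted p of 0.05, where 0.0351% of probes passed with GK higher. At an unadjusted p under 0.05 in the same fit the count was 2 of 2, against 8.00% of probes with GK higher. With other processing the adjusted count became 1 of 2 under 5 of 20 alternatives, as DQ746748 passed in 4 of them and DQ732700 in 1, without GK 1. Of all probes, those passing with GK higher were 7 of 11407 with normexp and 5 of 11408 with outlier spots kept. They were 1 of 7794 among probes detected throughout, 5 of 11407 with a robust and trended eBayes and 9 of 11407 without GK 1. The authors' criterion of a p of 0.05 and a fold of 2 takes both by construction, beside 0.695% of the 18419 probes in the deposited matrix that it takes as higher in GK. As these piRNAs were picked on this contrast, nothing is read from the counts.

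**Figure D2:**
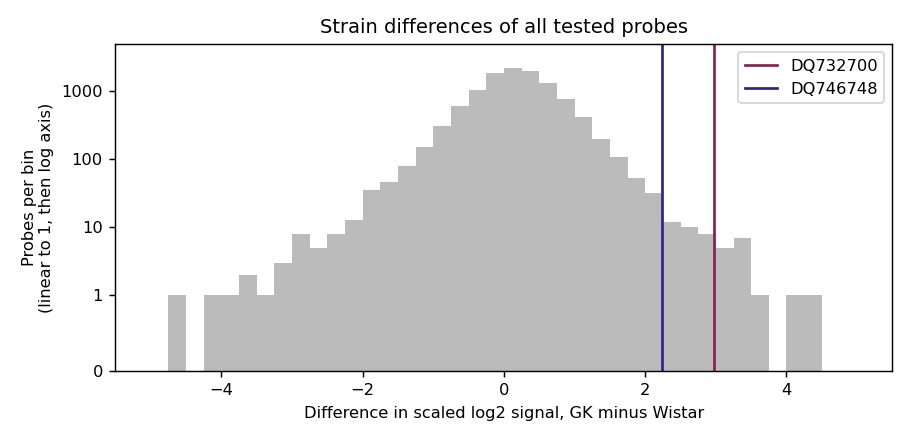
Number of tested probes (vertical axis, linear to 1 and logarithmic above) by their difference in scaled log2 signal, GK minus Wistar, in bins of 0.25. The vertical lines mark DQ746748 at 2.24 and DQ732700 at 2.97, both in the upper tail of the 11407 probes, whose median is 0.17.

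The uncorrected spot signals showed how much of the fold depends on the background. For DQ746748 the uncorrected median signal of the spot was 59, 52 and 48 on Wistar 1, 2 and 3 and 117, 117 and 86 on GK 1, 2 and 3. The local background beside that spot was between 16.5 and 22 on all arrays, and the median of 153 negative control spots was between 31.5 and 35. Over the negative control median, the DQ746748 spot was thus 1.52-fold to 1.74-fold brighter on the Wistar arrays and 2.46-fold to 3.55-fold on the GK arrays. The brightest negative control spot was at 75 on Wistar 1, above the DQ746748 spot. On the other arrays it was between 37 and 50.5, below the DQ746748 spot. With neither background correction nor scaling the strain difference of DQ746748 was 1.00 on the log2 scale, or 2.00-fold. Background-corrected but unscaled values gave 1.85, or 3.61-fold, and corrected and scaled values 4.71-fold.

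The same reading was made for DQ732700. Its uncorrected spot signal was 73, 68.5 and 67 for the Wistar samples, and for the GK samples it was 150, 324.5 and 297.5. This was 2.08-fold to 2.15-fold the negative control median in Wistar islets and 4.55-fold to 9.27-fold in GK islets. On Wistar 1 the brightest negative control spot, at 75, was also above the DQ732700 spot. The uncorrected strain difference was 1.81 on the log2 scale, or 3.51-fold, in place of 7.83-fold. For both piRNAs the direction was unchanged without correction and the strains did not overlap. The size of the fold depended on the background correction and also on the scaling. How much of that signal belongs to the named piRNA was not tested.

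The spots printed around each piRNA were read in the same way, within 2 rows and 2 columns. For DQ732700 the median uncorrected signal of the 24 surrounding spots was 36.2, 40.5 and 37 for the Wistar samples, against 44, 45.8 and 42 for the GK samples. The DQ732700 spot exceeded that median by 36.8, 28 and 30 units in Wistar islets and by 106, 279 and 255.5 units in GK islets. For DQ746748 the 22 surrounding spots had medians of 36.5, 31.5 and 31 for the Wistar samples, against 33, 38.5 and 36 for the GK samples. The DQ746748 spot exceeded them by 22.5, 20.5 and 17 units in Wistar islets and by 84, 78.5 and 50 units in GK islets. The surrounding medians ranged from 31 to 45.8, and around DQ732700 all 3 GK medians lay above all 3 Wistar medians.

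**Figure D3:**
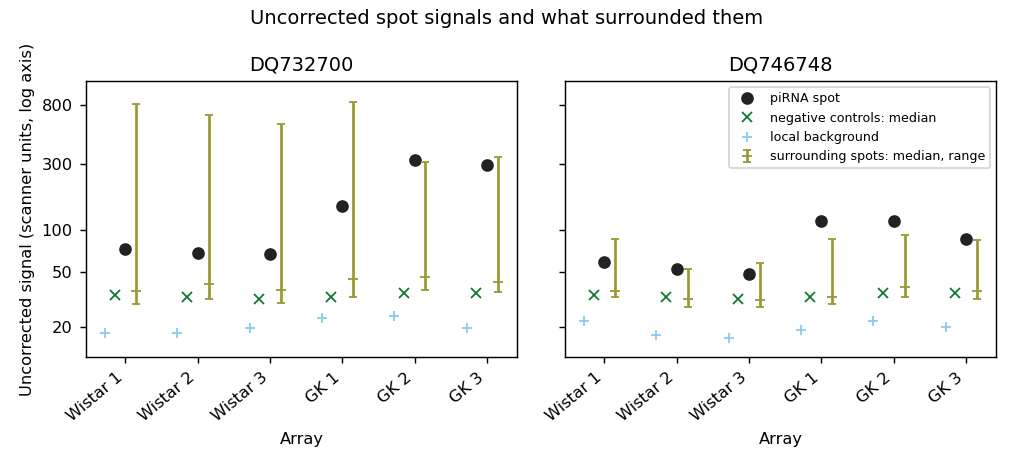
Uncorrected median signal in scanner units (log axis) of the DQ732700 spot (left) and the DQ746748 spot (right) on each array, with the median and range of the surrounding spots, the median of the negative control spots and the local background. Surrounding medians stay between 31 and 45.8 on all arrays, whereas the piRNA spots are higher on each GK array than on each Wistar array.

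On the scaled log2 scale, the surrounding spots had a median strain difference of 0.40 around DQ732700 (23 spots with values on all arrays). Around DQ746748 it was 0.51 (22 spots), and both were towards GK. Over all 39885 probes of the arrays, dim ones included, the median difference on this scale was 0.39. Around DQ732700, 6 of the 23 were well above background on every array. The tested probes among the surrounding spots had medians of -0.01 (7 probes) and 0.20 (4 probes). Around DQ746748, 6 of 22 spots had GK above Wistar without overlap, although no surrounding spot was well above background on every array. For DQ732700 such separation was seen at 2 of 23 spots. Over all probes, dim ones included, it was seen at 3624 of 39886. How far the differences of surrounding spots bear on the results for both piRNAs was not tested.

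Of the tested piRNAs with neighbouring accession numbers, 0 of 4 near DQ732700 and 0 of 3 near DQ746748 had GK above Wistar without overlap. Whether piRNAs with neighbouring accessions lie near each other in the genome was not analysed here. Within 10 accession numbers of DQ732700 the array has 13 other piRNA probes, of which 9 were not well above background on any array and 4 were tested. The 4 had log2 differences between 0.03 and 0.33. DQ732699, the adjacent accession, was detected on every array and had scaled log2 signals of -3.28, -3.74 and -3.30 in Wistar islets and -3.41, -3.27 and -3.27 in GK islets, a difference of 0.13.

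Around DQ746748 there are 10 other piRNA probes within the same window, of which 3 were tested. Their log2 differences were between -0.92 and 0.04. The nearest one detected on every array was DQ746756, with a difference of 0.04. Its scaled log2 signal was -2.94, -2.64 and -4.30 in Wistar islets and -2.81, -3.39 and -3.57 in GK islets. As scaled here 12.5% of tested probes separate upward, so 0 of 3 and 0 of 4 are too few to call either neighbourhood different from the rest.

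The profiles of the piRNAs over the 6 arrays were also compared with those of all other piRNA probes detected throughout. Likeness was the root mean square difference between profiles, each centred on its own mean, over 7682 other probes. The probe most like DQ732700 was DQ623346, at 0.15 on the log2 scale, where the median over all compared probes was 1.53. DQ623346 had scaled log2 signals of -3.20, -3.19 and -3.15 in Wistar islets and -1.51, -0.03 and 0.12 in GK islets. As the probe was picked for its likeness on these arrays, its low GK 1 value and close Wistar values follow from that choice. DQ745279 and DQ624208 came next, at 0.34 and 0.36, with strain differences of 2.67 and 2.48 against 2.71 for DQ623346.

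For DQ746748 the most like probe was DQ623418, at 0.34 against a median of 1.096. DQ623418 had scaled log2 signals of -4.04, -4.04 and -4.03 in Wistar islets and -2.24, -2.23 and -2.85 in GK islets. GK 3 was its lowest GK array, whereas DQ742514 was lowest on GK 2 and DQ761006 on GK 1. DQ742514 and DQ761006 followed at 0.39 and 0.43, with strain differences of 1.82 and 1.74 against 1.60 for DQ623418. All 6 of these probes are in the authors' deposited table of strain differences, which was drawn from the same arrays. Between DQ732700 and DQ746748 the root mean square difference was 0.68. Among the 7682 probes DQ746748 had the rank 11 in likeness to DQ732700, and DQ732700 had the rank 124 in likeness to DQ746748. As both were picked for a higher signal in GK islets, likeness between them follows in part from that choice.

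**Figure D4:**
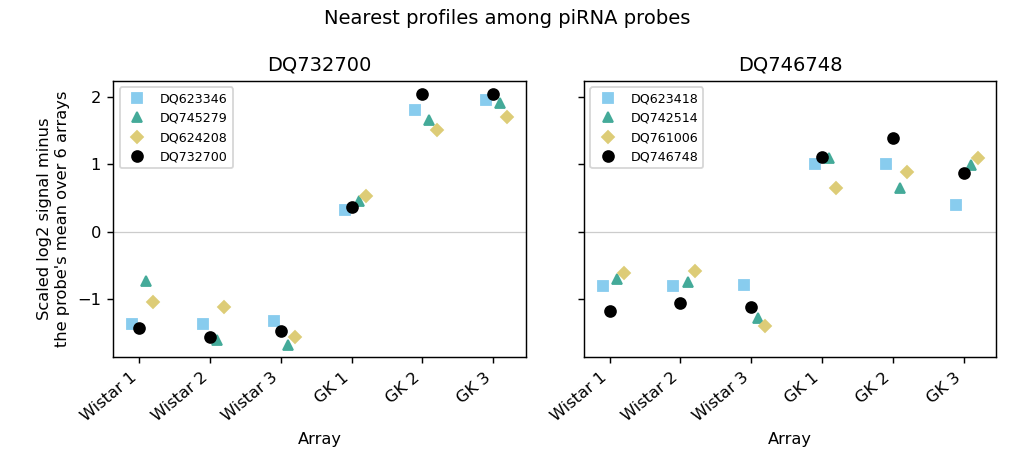
Scaled log2 signal minus the probe's own mean over the 6 arrays, for DQ732700 (left, black) and DQ746748 (right, black) and the 3 piRNA probes with the most like profile (colours). The probes on the left share a GK 1 value below GK 2 and GK 3, and those on the right differ in which GK array is lowest.

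The authors' own normalized values gave the same picture array by array. In the authors' deposited table DQ732700 is at 5.19, 5.00 and 5.02 on the log2 scale in Wistar islets and at 6.78, 8.52 and 8.47 in GK islets. DQ746748 is at 4.24, 4.25 and 4.19 in Wistar islets and at 6.24, 6.40 and 5.97 in GK islets in the authors' deposited table. The lowest value per array in that matrix is at most 2.37, so none of these 12 values is a floor. Of the 128 piRNAs listed as higher, 61 were detected on every array here, and among those DQ732700 had the rank 2 by fold and 15 by p-value, and DQ746748 the rank 9 by fold and 1 by p-value.

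The difference in favour of GK kept its sign in all 16 other ways of obtaining it that were tried. Most of these could not have changed the sign. Leaving out arrays cannot do so when all GK values lie above all Wistar values. Neither piRNA spot was flagged as an outlier, so keeping outlier spots changed only the scaling. The replicate block leaves the difference unchanged by construction. With the scan as a block it equals that within scan 1, because scan 2 holds GK samples only. The difference ranged from 1.79 to 3.53 for DQ732700 and from 1.00 to 2.36 for DQ746748. The lowest value of DQ732700 came with normexp background correction and the highest without GK 1, when each strain lies in a scan of its own. DQ746748 was lowest on uncorrected, unscaled signals and highest without GK 3. Scaling moved the median of all probes as well. Relative to that median, DQ732700 was higher by 2.80 as scaled here and by 2.96 with quantile normalization, and DQ746748 by 2.07 and 2.08. With normexp the excess over the median was 1.57 for DQ732700 and 0.80 for DQ746748. It was 1.85 and 1.03 on uncorrected, unscaled signals, and 1.77 and 2.13 within scan 1.

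**Figure D5:**
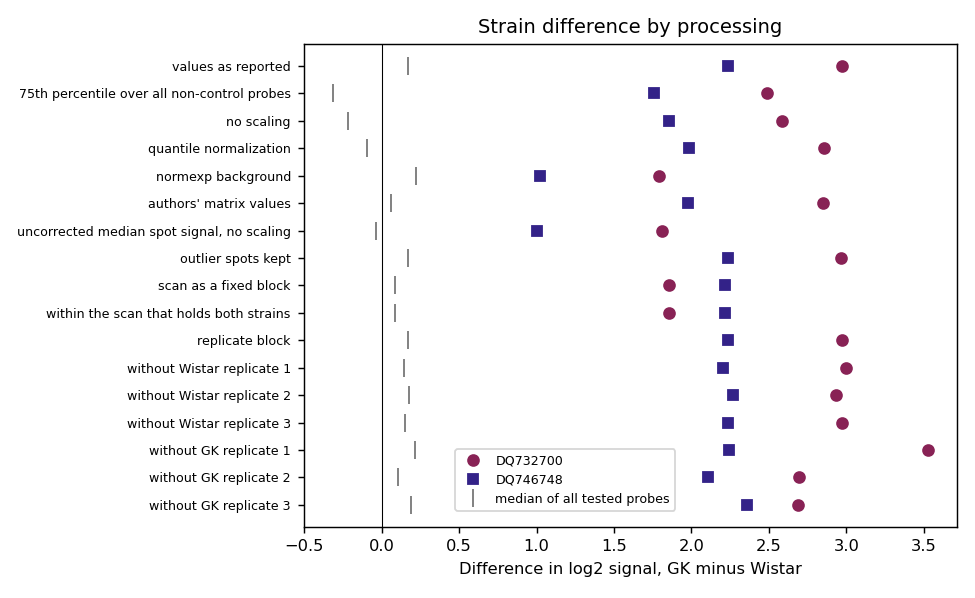
Difference in log2 signal, GK minus Wistar, of DQ732700 (circles) and DQ746748 (squares) as reported and under 16 alternatives, with the median of all tested probes as a tick. Both piRNAs stay to the right of 0 throughout, between 1.79 and 3.53 for DQ732700 and between 1.00 and 2.36 for DQ746748.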

How the data were processed

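Per the file headers, Agilent Feature Extraction 11.0.1.1 produced the deposited scanner files. They hold spot intensity values. The processed signal has background removed within each array, and its level still differs from array to array. Per the file headers the other columns give the software's error, flags and spot positions. The deposited matrix and list hold log2 intensities that the authors normalized, by a method not given in the sources used here. For each listed piRNA the deposited list adds the authors' fold, a ratio, and their p-value from an unpaired comparison.

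Processed signals were log2-transformed and set relative to the 75th percentile of the array, over probes detected (well above background) on all arrays. Outlier-flagged spots did not enter the values. The 11407 probes detected on at least 3 arrays were fitted by strain alone with limma 3.58.1 (R 4.3.3) and Benjamini-Hochberg adjustment. The fit was tested on simulated data. Arrays with one scan time were taken as one scan. Normexp took the median spot signals, with an offset of 50.

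The piRNAs, lists and rules were chosen with earlier results of these data known. Named probes are the 2 piRNAs, the 3 most like profiles of each, and the nearest accession on each side that was detected on all arrays. Sequences and genome positions of the piRNAs were not used here.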

Additional observations from a re-analysis of the deposited data

How the results depend on the processing

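The log2 difference of DQ732700 (2.97) moved by more than its replicate SD to 1.79 with normexp. It moved likewise to 1.86 within scan 1 and with the scan as a block. On uncorrected, unscaled spot signals, an alternative chosen after seeing the data, it moved to 1.81. For DQ746748 the difference (2.24) moved by more than its replicate SD to 1.76 when all non-control probes set the percentile. It became 1.85 in unscaled values, 1.98 with quantile normalization, 1.02 with normexp, 1.98 in the authors' matrix and 1.00 on uncorrected, unscaled signals. Leaving out 1 array gave 2.69 to 3.53 for DQ732700 and 2.10 to 2.36 for DQ746748. In the limma fit over all probes 0 of the 2 piRNAs passed, and this stayed at 0 in 15 of 20 alternatives. In most of these 15 no probe at all passed, so the count could only be 0 there. The exceptions were the percentile over all probes and unscaled values, with 14 and 6 of 11407 probes passing. The count was 1 with normexp, among probes detected throughout, with a robust and trended eBayes and when outlier spots were kept (DQ746748 each time), and it was 0 to 1 with 1 array left out, where DQ732700 passed without GK 1. Both had an unadjusted p under 0.05 in each of the 20, as did 390 to 2542 of all tested probes, and nothing is read from it because the piRNAs were picked on this contrast. The number of all probes passing, 5 of 11407, became 14 of 11407 with the percentile over all probes and 15 of 11407 with normexp. It was 8 of 11408 when outlier spots were kept, 8 of 11407 with a robust and trended eBayes and 2 of 7794 among probes detected throughout. It became 0 with quantile normalization, the authors' matrix, the scan as a block, within scan 1, the replicate block, no filter on dim probes and an unmoderated linear model. At an unadjusted p under 0.05 in limma these 7 settings had between 390 and 2510 probes. With 1 array left out it was 0 to 21, and between 597 and 2542 at an unadjusted p under 0.05. Probes with GK above Wistar without overlap, 1415, became 229 with the percentile over all probes, 354 without scaling, 741 with quantile normalization, 2573 with normexp and 3624 without the filter. The cause of these changes was not tested, except that another percentile, or none, shifts all probes of an array alike by construction. Deviations of same-numbered samples from their strain means correlated at -0.12, -0.00028 and 0.05 across probes, so no pairing by number was visible. So few arrays cannot show that the samples were unpaired. With the replicate block the differences are 2.97 and 2.24 by construction, since each sample number occurs once in each strain. Both folds varied with background correction.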
